A study of Mus musculus with 2 samples.

Results

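Neat1 and Malat1 are neighbouring mouse genes on chromosome 19 whose products are long noncoding RNAs that stay in the nucleus. Chromatin at both genes was described in cultured Th2 cells, a class of helper T cell that makes interleukin 4, from a library of acetylated histone H3 (H3KAc) and a control library. The locus was selected on the same H3KAc and IgG read counts that are given here, so those counts describe it and were not tested. It comprised 100 bins of 1 kb from chr19:5770001-5870000 of mm9, out of 2246042 covered bins of the genome. By the approximate gene positions used to define the locus, 7 bins lay in Malat1 (chr19:5796001-5803000) and 20 in Neat1 (chr19:5825001-5845000). Both genes are read from the minus strand, so each 5' end is at the larger coordinate, and these ends are known here only to about 1 kb. The RefSeq gene table of another build (GRCm38.p6) lists 1 transcript for Malat1 and 2 for Neat1.

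The H3KAc group and the IgG group were each 1 library, from Th2 cells of C57BL/6 mice. Spleen cells bearing CD4 and CD62L had been stimulated through CD3 and CD28 for 5 days. The medium held 10 ng/ml IL-4 and 2 µg/ml of an antibody to interferon gamma, and 3 days of rest followed. Chromatin crosslinked in 0.4% formaldehyde was precipitated with 7 µg of either anti-H3KAc or polyclonal rabbit IgG. The labels do not say which lysines the antibody recognises, how many mice were used, or whether both libraries came from the same culture. The Th2 label was not checked against marker genes, because no annotation on mm9 was used.

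Neat1 RNA is the scaffold of paraspeckles, nuclear bodies built around its long form. A short and a long form start at the same promoter and differ in their 3' end. Malat1 RNA is an abundant transcript of nuclear speckles, the compartments where splicing factors gather, and its cleaved 3' end releases the small mascRNA. Acetylation of histone H3 is a mark of active chromatin that is usually strongest in the nucleosomes flanking an active promoter.

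The RefSeq promoter table (GRCm38.p6) held 1 of the 2 genes, Malat1. Its 300 bases, from 250 before to 50 after the annotated start, are shown because H3KAc at this end fell into separate blocks around a sparse stretch (below). They lie at chr19:5802623-5802922 of GRCm38.p6 on the minus strand, a position that was not converted to mm9. Capitals mark CG dinucleotides.

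Malat1: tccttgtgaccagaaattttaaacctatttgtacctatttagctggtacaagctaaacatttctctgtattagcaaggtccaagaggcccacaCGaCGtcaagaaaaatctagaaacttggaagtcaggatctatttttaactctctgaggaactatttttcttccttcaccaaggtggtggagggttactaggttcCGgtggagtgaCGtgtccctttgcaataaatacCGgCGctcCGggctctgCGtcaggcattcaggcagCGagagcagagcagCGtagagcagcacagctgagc

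The Malat1 promoter held 10 CG dinucleotides, 2 in the first 150 bases and 8 in the last 150, next to the start. The median of the 32851 promoters in the table was 7. Its G and C content was 47.0%, against a median of 52.7%. Exact motif letters were searched on both strands, and none of those named here was found in this window. The TATA box letters TATAAA were held by 13.6% of all promoters in the table. The CCAAT box, spelled by its name, was held by 37.4%. The GC box letters GGGCGG, bound by Sp1, were held by 35.7%. The letters CCGGAAG, a site of Ets factors, were held by 8.86%. The AP-1 letters TGANTCA were held by 7.81%, and the letters AGATAA, of GATA factors such as Gata3 of Th2 cells, by 11.2%.

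The H3KAc library held 19711169 distinct positions (21845451 reads) and the IgG library 1897666 (7626703 reads). A distinct position is a read start on 1 strand, counted 1 time however often it was read, and is called a read below. Levels are reads per 1000000 distinct positions of the library (RPM). A single IgG read is worth 0.527 RPM, so the IgG depth set the precision of the ratios. A count of 0 is not a level of 0: in the 2 kb inside the Neat1 5' end, without an IgG read, the 95% interval of IgG reached 0.972 RPM per kb. Intervals are exact 95% intervals for counting error only, and with 1 library per group no difference has a replicate check. A bin was called enriched when it held at least 5 reads in both libraries together and the lower bound of its H3KAc over IgG ratio was above 2.

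The 5' end of Neat1 carried the highest H3KAc of the locus. The bin from 5844001, the last kb inside the gene, held 207 H3KAc reads or 10.5 RPM (9.12 to 12.03) and no IgG read. The next bin into the gene, from 5843001, held 104 H3KAc reads or 5.28 RPM (4.31 to 6.39), again without an IgG read. Just outside the gene, the bin from 5845001 held 107 H3KAc reads or 5.43 RPM (4.45 to 6.56) and 3 IgG reads, a ratio of 3.43 (1.14 to 16.9). The bin from 5846001 fell to 40 H3KAc reads or 2.03 RPM and 1 IgG read. H3KAc was thus high across 3 adjacent bins, 2 inside the gene interval and 1 outside it.

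The 2 bins inside Neat1 were the 2 enriched bins among the 98 bins of the locus with enough reads. Over the genome the same rule called 0.0836% of 1409765 bins. The locus was chosen with these calls known, so nothing is read from this comparison. The lower bounds were 5.35 from 5844001 and 2.67 from 5843001. The nearest bin below the threshold of 2 was in Malat1, from 5801001, at 1.91, and it passed 2 under 4 of 8 alternatives, at 2.03 to 5.62. With plus-strand or minus-strand reads alone, the bin from 5843001 was no longer called, at lower bounds of 0.927 and 1.71. The bin from 5844001 was called with either strand alone, at 2.80 and 2.50.

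**Figure D1:**
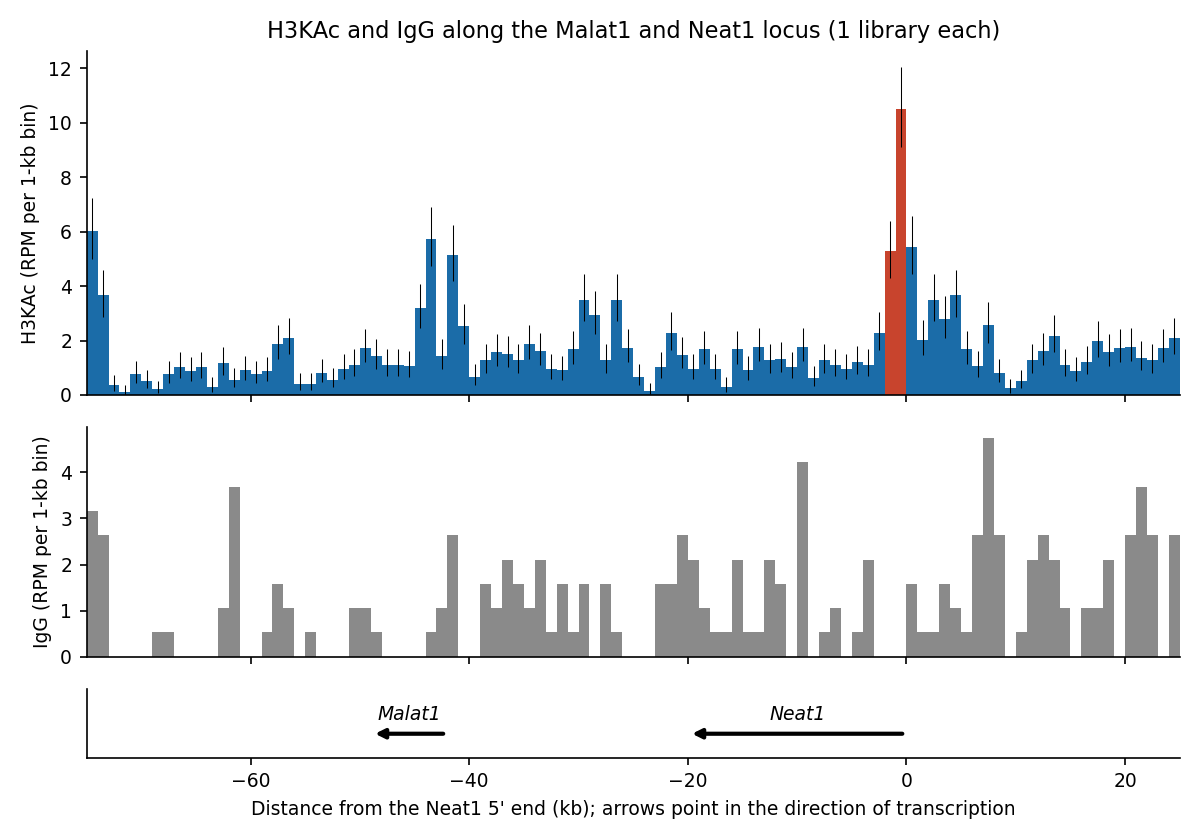
H3KAc (top) and IgG (middle) in RPM per 1-kb bin against distance from the Neat1 5' end in kb, with exact 95% Poisson intervals on the H3KAc bars. Enriched bins are red and arrows show both genes. The highest bin, 10.5 RPM, adjoins the Neat1 5' end, and 2 bins of 5.73 and 5.12 RPM flank a low bin of 1.42 RPM at the Malat1 5' end.

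Taken over 2 kb on each side of the Neat1 5' end, H3KAc was 5.81 RPM per kb (5.29 to 6.37) from 458 reads. IgG was 0.527 RPM per kb (0.144 to 1.35) from 4 reads, and the ratio was 11.02 (4.28 to 40.6). The 2 kb inside the gene held 311 H3KAc reads and the 2 kb outside 147, a ratio of 2.12 (1.73 to 2.59) per kb. All 4 IgG reads lay outside. This balance rests on where the 5' end is placed. With the end 1 kb farther into the gene, 149 reads lay inside and 314 outside, and the ratio turned to 0.475 (0.388 to 0.578). With it 1 kb farther out, the ratio was 2.88 (2.31 to 3.62).

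Deeper in Neat1, H3KAc dropped to a level near that of IgG. The bin from 5842001 held 45 reads, and the 17 bins more than 3 kb inside the gene held 6 to 35 reads, with a median of 22 or 1.12 RPM. The 18 kb of the gene without its first 2 kb averaged 1.23 RPM per kb (1.12 to 1.36) in H3KAc and 1.08 (0.763 to 1.49) in IgG. Their ratio was 1.14 (0.814 to 1.64). Per kb, H3KAc in the first 2 kb was 6.39 times (5.51 to 7.41) that of the rest of the gene. Within the gene interval, the 2 highest bins were thus those next to the 5' end shared by both forms of the RNA. The median covered bin of the genome held 6 reads, the same as the lowest bin of Neat1, from 5828001. The median bin more than 3 kb inside Neat1 exceeded 93.0% of covered bins.

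At the Malat1 5' end, 2 high bins flanked a low bin. The bin from 5801001, inside the gene, held 113 H3KAc reads or 5.73 RPM (4.72 to 6.89) and a single IgG read, or 10.9-fold (1.91 to 433). The bin from 5803001, outside it, held 101 reads or 5.12 RPM (4.17 to 6.23) and 5 IgG reads, a ratio of 1.94 (0.806 to 6.12). Between them, the bin from 5802001, the last kb of the gene interval, held 28 reads or 1.42 RPM (0.944 to 2.05) and 2 IgG reads. This was 0.262 times (0.170 to 0.389) the mean of 107 reads of the 2 neighbours. The comparison was made because the bin was low, so its interval is a description and does not test for a dip. In IgG the low bin had 2 reads against a mean of 3, a ratio of 0.667 (0.0658 to 3.73), too few to show whether IgG dipped as well. Whether reads can be aligned equally well in the low bin was not tested.

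The outer parts of this 5' end were lower. The bin from 5804001 held 50 H3KAc reads or 2.54 RPM and no IgG read, and the bin from 5800001 held 63 reads or 3.20 RPM and no IgG read. Over 2 kb on each side of the Malat1 5' end, H3KAc was 3.70 RPM per kb (3.29 to 4.15) from 292 reads and IgG 1.05 (0.455 to 2.08) from 8. The ratio was 3.51 (1.76 to 8.22), with a lower bound under 2. The lower bound rose above 2 with all deposited reads (3.93), with IgG averaged also over 5 bins on each side (3.01) and with 5 kb on each side (2.00), and fell to 0.837 with 1 kb on each side. Reads inside and outside were 141 and 151, a ratio of 0.934 (0.737 to 1.18). It became 1.36 (1.08 to 1.73) with the end 1 kb farther into the gene and 2.05 (1.504 to 2.81) with it 1 kb farther out, so the side with more H3KAc was not resolved.

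**Figure D2:**
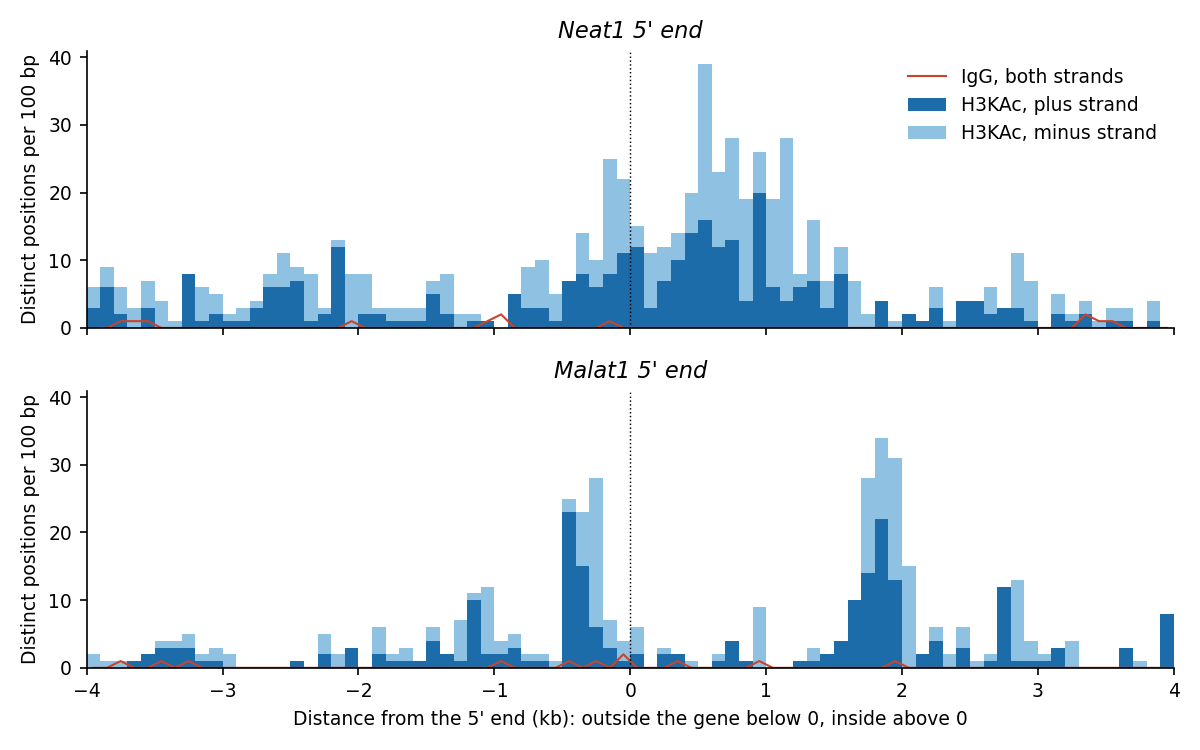
Distinct H3KAc positions per 100 bp on each strand (stacked bars) and IgG positions (line) against distance from each 5' end in kb, with the inside of the gene above 0. Neat1 shows a continuous block reaching 39 positions per 100 bp, and Malat1 shows separate blocks reaching 28 outside and 34 inside the gene.

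In 100-bp bins the shapes at the 2 ends differed. At Neat1, adjacent bins with 10 or more H3KAc reads ran for 1600 bp, from 400 bp outside to 1200 bp inside the 5' end (chr19:5843801-5845400). This block had 325 reads, 154 on the plus and 171 on the minus strand. Its highest bin, with 39 reads, lay 500 to 600 bp inside.

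At Malat1 the reads gathered in narrower blocks. One of 300 bp (chr19:5803201-5803500) lay 200 to 500 bp outside the 5' end and held 76 reads. Another of 500 bp (chr19:5800901-5801400) lay 1600 to 2100 bp inside and held 118 reads, 59 on each strand. The 1800 bp between them held 49 reads, at most 9 in any 100 bp. Smaller blocks of 23 and 25 reads lay farther out on either side.

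Sparse bins of 100 bp were also more frequent at Malat1. Within 2 kb of the 5' end, 17 of 40 bins of 100 bp held 2 reads or fewer at Malat1 and 6 of 40 at Neat1, and the medians were 3.5 and 8.5 reads. Total reads there differed as well (292 and 458), and depth was not equalised. Reads on opposite strands were most often 59 bp apart in H3KAc on chromosome 19, so the 100-bp move placed such pairs past each other. In IgG they were most often 157 bp apart, a measured shift of 78 bp. The labels give a fragment size of 200 bp. With H3KAc reads moved by the measured 29 bp instead, a setting chosen after seeing the data, the outer Malat1 block had 78 reads in 300 bp. Of these, 56 lay in 1 bin of 100 bp. The inner block then had 113 reads in 400 bp, and the 1800 bp described above again held 49, but 14 of them lay in a single 100-bp bin, 800 to 900 bp inside, and 10 in the bin next to the outer block. The Neat1 block became 2 of 700 bp each, with 114 reads from 400 bp outside to 300 bp inside, and 197 reads from 400 to 1100 bp inside. Bins with 2 reads or fewer within 2 kb were then 16 of 40 at Malat1 and 10 of 40 at Neat1, a smaller gap.

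Compared directly within the H3KAc library, the Neat1 5' end held 1.57 times (1.35 to 1.82) the reads of the Malat1 5' end over the same 4 kb. In IgG the corresponding ratio was 0.5 (0.110 to 1.87), from 4 and 8 reads. Over the whole genes the order was not resolved. H3KAc averaged 1.90 RPM per kb (1.77 to 2.04) in Neat1 and 2.15 (1.91 to 2.41) in Malat1, a ratio of 0.883 (0.771 to 1.01). Malat1 is the shorter gene, at 7 kb against 20 kb. Its first 2 kb held 141 of its 297 H3KAc reads, and the first 2 kb of Neat1 held 311 of 749. Without the first 2 kb of each gene, Neat1 held 0.780 times (0.648 to 0.942) the H3KAc of Malat1 per kb.

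IgG also differed between the genes, on few reads. Neat1 held 37 IgG reads, 0.975 RPM per kb (0.686 to 1.34), and Malat1 4 reads, 0.301 RPM per kb (0.0820 to 0.771), a ratio of 3.24 (1.16 to 12.5). As a result H3KAc over IgG was 7.15 (2.76 to 26.4) over Malat1 and 1.95 (1.40 to 2.79) over Neat1. In the 5 kb of Malat1 beyond the first 2 kb, H3KAc was 1.58 RPM per kb (1.34 to 1.85) from 156 reads. The first 2 kb held 2.26 times (1.79 to 2.86) as much per kb, a smaller step than the 6.39 times of Neat1, although this difference was not tested. The 4 bins more than 3 kb inside Malat1 held 21 to 28 reads. Over the whole 5 kb, the H3KAc level was 0.881 times (0.737 to 1.05) that of the 22 kb between the genes, while IgG was 0.0957 times (0.00237 to 0.560). For Neat1 without its first 2 kb, H3KAc was 0.687 times (0.610 to 0.774) the level between the genes and IgG 0.983 times (0.620 to 1.55). Those 22 kb include the 2 kb outside the Malat1 5' end, which held 151 of their 779 H3KAc reads. The ratio of 15.0 (2.66 to 597) in this part of Malat1 rested on 1 IgG read.

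**Figure D3:**
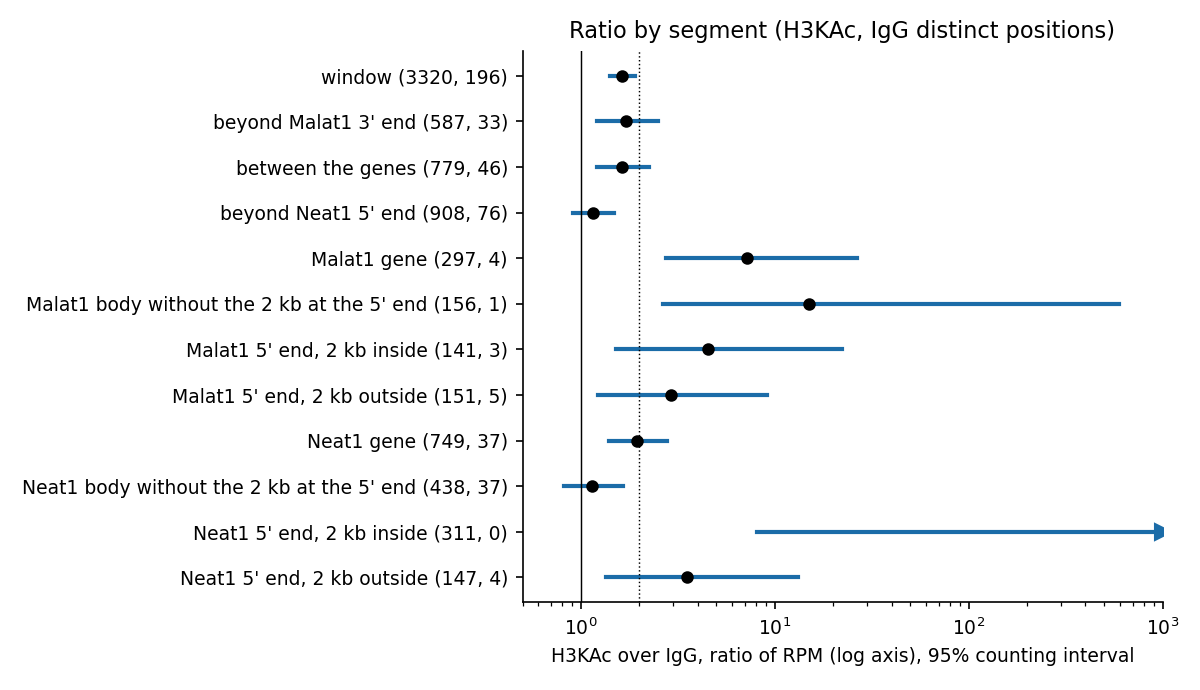
H3KAc over IgG as a ratio of RPM (log axis) for segments of the locus, with exact 95% counting intervals and the numbers of H3KAc and IgG reads in brackets. Lines mark ratios of 1 and 2. The 2 kb inside the Neat1 5' end have no IgG read, so their interval has a lower bound of 8.07 and no upper bound, while the rest of Neat1 has a ratio of 1.14.

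Outside the genes, H3KAc rose in a few places without an enriched call. Between Malat1 and Neat1, the bins from 5815001, 5816001 and 5818001 held 69, 58 and 69 H3KAc reads and 3, 0 and 1 IgG reads, and the bin from 5817001 held 25 and 3. They lie between the approximate intervals of both genes. On the far side of the Neat1 5' end, the bins from 5847001, 5848001 and 5849001 held 69, 55 and 72 reads, with 1, 3 and 2 IgG reads. At the low-coordinate edge of the locus, the bins from 5770001 and 5771001 held 119 and 72 reads, with 6 and 5 IgG reads. The first of these was the second highest H3KAc bin of the locus, at a ratio of 1.91 (0.852 to 5.31).

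The 22 kb between the genes averaged 1.80 RPM per kb in H3KAc, a ratio to IgG of 1.63 (1.21 to 2.25). The 25 kb beyond the Neat1 5' end averaged 1.84, a ratio of 1.15 (0.910 to 1.47), and the 26 kb beyond the Malat1 3' end averaged 1.15, a ratio of 1.71 (1.21 to 2.51). The first 2 of these stretches include the 2 kb outside the Malat1 and the Neat1 5' end, with 151 and 147 H3KAc reads. The lowest H3KAc bin, from 5773001, held 2 reads. The bins with the most IgG reads, from 5852001, 5835001, 5783001 and 5866001, held 9, 8, 7 and 7, and their H3KAc over IgG ratios ran from 0.151 to 0.546. The bin from 5783001 held 11 H3KAc reads and was under-represented, its ratio of 0.151 having an upper bound of 0.460, below 0.5. Genome-wide, 0.629% of bins met that rule.

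Looser rules called more bins, most of the added ones more than 2 kb from either 5' end. With a lower bound above 1, 10 bins of the locus passed, against 0.651% of bins genome-wide. They were 3 bins in Neat1, from 5842001 to 5845000, and 2 bins beyond its 5' end, from 5845001 and 5847001. The others were the Malat1 bins from 5800001 and 5801001 and the bins from 5804001, 5816001 and 5818001. With IgG averaged over 11 bins, 13 bins passed, against 2.15% genome-wide. Of these, 3 lay within 2 kb of the Neat1 5' end, 2 within 2 kb of the Malat1 5' end and 8 elsewhere. Both counts come from the values that chose the locus.

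**Figure D4:**
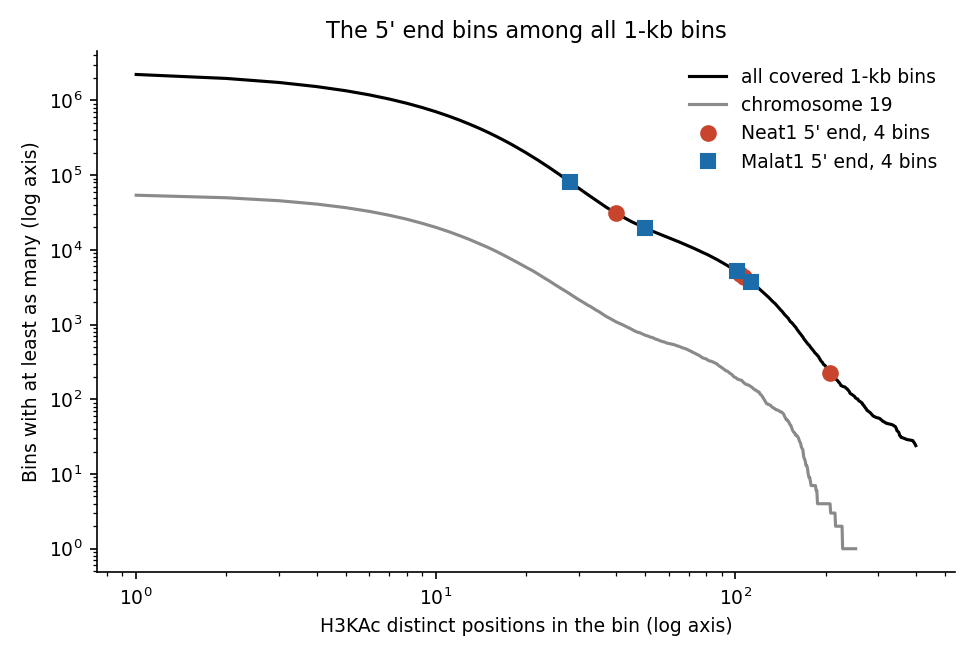
Number of 1-kb bins holding at least a given number of H3KAc reads (both axes log), over the genome and over chromosome 19, with the 4 bins around each 5' end marked on the genome curve. The highest Neat1 bin, at 207 reads, is matched or exceeded by 225 bins including itself, and the highest Malat1 bin, at 113 reads, by 3708.

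Among all covered bins, the Neat1 bin from 5844001 was 1 of 225 with at least 207 H3KAc reads, and 1 of 4 on chromosome 19. Of these 225 bins, 5 (2.22%) had no IgG read, and the Neat1 bin was among them. A bin without an IgG read was common elsewhere: 60.5% of all covered bins, and 34 of the 100 bins of the locus. The 225 bins averaged 47.4 IgG reads, against 0.845 over all covered bins. How these IgG reads were spread over the 225 bins was not computed. The place of the Neat1 bin among these bins and the ranks below come from the counts that chose the locus. By lower bound the Neat1 bin from 5844001 ranked 5 in the genome and 1 on chromosome 19. The bin from 5843001 ranked 362 by lower bound in the genome. For Malat1, the bin from 5801001 ranked 1384, and 3708 bins held at least as many H3KAc reads. The low Malat1 bin, at 28 reads, still exceeded 96.4% of covered bins.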

How the data were processed

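The H3KAc and IgG libraries were deposited as positions and strands of single aligned reads, other values being placeholders, per the file headers. Reads of 35 bases had been aligned with Bowtie to mm9, per the submitters' processing notes. Bowtie's version and its handling of multiply aligned reads were not given in the sources used here. Everything else was computed here. Each read start was counted 1 time per strand, moved 100 bp along its strand and placed in bins. Ratios were given exact conditional binomial (Clopper-Pearson) intervals and levels exact Poisson intervals, all at 95%. Copies carried no molecular identifier, so repeats of 1 molecule could not be told from separate molecules. With 1 library per group, intervals cover counting error only. No p-value was computed, as each group had 1 library. The locus, its genes and the settings were chosen with earlier results of these data known. Bins named in the text are those around both 5' ends, the called bins, the 5 highest in H3KAc, the highest in IgG (with a tie) and the lowest; the bins from 5771001, 5815001 to 5818001, 5828001, 5842001 and 5846001 to 5849001 outside that rule, and the blocks of 100-bp bins, were chosen after their values were seen. The low Malat1 bin was likewise set against its neighbours because of its value. Paraspeckle and speckle protein genes were not analysed here, as no mm9 annotation was used. Computation used scipy 1.17.1, numpy 2.4.6 and pandas 2.3.3 under Python 3.11.15, and figures matplotlib 3.10.9. The genes beyond both ends of the locus are not reported here.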

Additional observations from a re-analysis of the deposited data

Results flagged for a closer look

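Reads removed as repeats of a position lie outside the main counts. In the Malat1 gene they were more frequent in H3KAc than in the control, with 59 H3KAc and 7 IgG repeats, or 2.70 and 0.918 per 1000000 reads, a ratio of 2.94 (1.34 to 7.64). Copies of a position are not independent, so this interval may be too narrow. The 7 IgG repeats came from the 4 IgG positions of the gene, where distinct reads already gave a ratio of 7.15 (2.76 to 26.4). The repeat ratio thus rests on the same 4 IgG positions and is not a separate result, and what set it was not tested. Reads per position were 1.20 in H3KAc and 2.75 in IgG in the Malat1 gene, against 1.11 and 4.02 in the whole libraries. In the Neat1 gene the ratio was 0.329 (0.247 to 0.438), from 97 and 103 repeats, and over the locus it was 0.285 (0.251 to 0.323). Over 2 kb on each side of the Neat1 and Malat1 5' ends it was 1.68 (0.972 to 3.09) and 1.77 (0.946 to 3.62). The whole IgG library held more repeats per position than H3KAc, so a ratio of 1 is not the library-wide level. The library-wide ratio was not computed.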

How the results depend on the processing

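The lower bound of the ratio at the Neat1 5' end stayed above 2 under all 12 alternatives run, between 2.81 and 5.99. At the Malat1 5' end it stayed under 2 in 9 of 12 and rose to 3.93 with all reads as deposited, 3.01 with IgG over 5 bins on each side and 2.00 with 5 kb on each side. The count of 2 enriched bins rose to 17 with all deposited reads. It rose to 13 with IgG over 5 bins on each side, against 2.15% of bins genome-wide. With a lower bound above 1 it rose to 10, against 0.651% genome-wide. It fell to 1 each with plus-strand reads, minus-strand reads, a lower bound above 4 and 500-bp bins. Reads not moved and measured read shifts gave 3, adding the Malat1 bin from 5801001. The genome-wide share was not computed for the counts of 17, 3 and 1, so nothing is read from them about this locus. IgG held 4.02 reads per position and H3KAc 1.11, so counting all reads changed the 2 libraries unequally. The H3KAc ratio of the Neat1 to the Malat1 5' end was 1.37 to 1.80 under 5 alternatives, each with an interval above 1. Per kb of gene, the interval of the Neat1 to Malat1 ratio held 1 in 4 of 5 alternatives, and with all reads the ratio was 0.832 with an interval below 1. With the 5' end moved 1 kb into the gene, a setting added after seeing the data, H3KAc inside over outside turned to 0.475 at Neat1 and 1.36 at Malat1, and with it moved out Malat1 gave 2.05. The low Malat1 bin, picked for its low value, was 0.197 to 0.348 times its neighbours. With all reads, copies enter the intervals as if independent, and 1 strand keeps about 0.5 of the reads; other causes were not tested. No paired analysis was possible because each group had 1 library.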
